A study of Mus musculus with 675 samples.

Results

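The transcripts described here are used as markers of platelets and of mast cells, in wells sorted from mouse aorta. They are 6 platelet genes (Pf4, Ppbp, Gp9, Gp5, Itga2b and Tubb1) and 4 mast cell genes (Cpa3, Cma1, Mcpt4 and Tpsb2). These 10 members, of 46517 gene identifiers in the count table, were chosen by symbol, and the wells with 10 or more counts, the co-detection of the members and the class of the wells belonged to the choice. All of those values are therefore given as description, with no test. The mice were C57BL/6 males of 10 weeks, and their cells were sorted into 384-well plates for Smart-seq2, a full-length cDNA method without molecular identifiers, so 1 of the 675 wells stands for 1 sorted cell. Pool A is 1 plate from 2 mice, with 54.4% of the wells, and pool B is another plate from 2 other mice, with the rest; plate and mice are 1 factor, the pools received no differing treatment in the labels, and the protocol text names heart where the tissue label reads aorta.

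Platelets are anucleate fragments of megakaryocytes that circulate in blood, adhere to damaged vessel walls and carry RNA from their parent cell. They store chemokines in granules and bind von Willebrand factor and fibrinogen through surface glycoproteins. Mast cells are tissue-resident immune cells that store proteases and histamine in granules and release them on activation, and they are known to lie in the outer layer of arteries.

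Wells of pool A held 52000 to 608582 counts and those of pool B 51886 to 713700, with medians of 279661 and 299296. Clustering without the members and related lists gave a fibroblast-like cluster (cluster 3, 67 wells), an endothelial-like cluster (cluster 4, 28 wells) and 3 clusters with high smooth muscle Acta2 (clusters 0, 1 and 2, together 560 wells). Clusters 5 and 6, of 15 and 5 wells, held no well with a member at 10 counts except 1 well of cluster 6 with a mast cell member. The 3 Acta2-high clusters are given by number, since no smooth muscle marker was among their 10 leading genes and those of cluster 2 included Tpsb2, Cpa3, Cma1 and Mcpt4.

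Because the members are read together as sets, promoters of 2 platelet and 2 mast cell members are shown, as 300 bases around the RefSeq start on GRCm38.p6, 5′ to 3′ on the gene's strand. Capitals mark, on either strand, a GATA word (the letters AGATAA, the letters TGATAA, the letters AGATAG or the letters TGATAG) or an ETS word (the letters AGGAAG, the letters CGGAAG, the letters AGGAAT or the letters CGGAAT).
Pf4 (chr5:90772185-90772484, plus strand): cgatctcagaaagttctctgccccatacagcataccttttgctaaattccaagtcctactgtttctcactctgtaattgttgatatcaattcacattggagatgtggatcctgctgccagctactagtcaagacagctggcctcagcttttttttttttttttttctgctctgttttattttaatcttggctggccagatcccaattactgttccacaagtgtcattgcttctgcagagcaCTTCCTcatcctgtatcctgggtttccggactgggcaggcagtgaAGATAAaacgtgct
Gp5 (chr16:30310732-30311031, minus strand): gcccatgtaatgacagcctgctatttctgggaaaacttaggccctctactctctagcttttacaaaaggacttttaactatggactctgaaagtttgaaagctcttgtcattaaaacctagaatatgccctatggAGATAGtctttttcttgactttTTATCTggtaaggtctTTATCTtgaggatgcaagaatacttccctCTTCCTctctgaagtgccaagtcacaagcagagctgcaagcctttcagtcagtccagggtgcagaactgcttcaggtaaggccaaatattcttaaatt
Cpa3 (chr3:20242132-20242431, minus strand): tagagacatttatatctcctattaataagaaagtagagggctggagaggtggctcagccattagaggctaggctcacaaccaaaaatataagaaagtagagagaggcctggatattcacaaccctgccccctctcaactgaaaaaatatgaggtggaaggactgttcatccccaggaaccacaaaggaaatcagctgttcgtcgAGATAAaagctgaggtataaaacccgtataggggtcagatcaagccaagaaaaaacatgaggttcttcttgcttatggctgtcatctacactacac
Mcpt4 (chr14:56062261-56062560, minus strand): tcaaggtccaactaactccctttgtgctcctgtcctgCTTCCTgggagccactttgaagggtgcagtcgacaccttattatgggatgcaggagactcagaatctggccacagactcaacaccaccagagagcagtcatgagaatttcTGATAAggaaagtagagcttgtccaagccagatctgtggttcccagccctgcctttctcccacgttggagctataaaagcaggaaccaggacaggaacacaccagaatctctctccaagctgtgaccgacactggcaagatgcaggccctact
A promoter was found for 6 of 6 platelet members and for 3 of 4 mast cell members. A GATA word was present in 2 of the 6 platelet promoters, and these are the 2 shown, Pf4 and Gp5. Those of Ppbp, Gp9, Itga2b and Tubb1 had none. A GATA word was present in 3 of the 3 mast cell promoters. The share among 32851 promoters of the same length was 29.8%. An ETS word was present in 6 of 6 and in 2 of 3, against 56.7% of all promoters. These are matches of letters and no measure of binding.

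The mast cell proteases were concentrated in 1 well. Well D15 of pool A held 1349 counts of Cpa3 (chr3:20215620-20242181), which encodes the carboxypeptidase of mast cell granules. It held 1370 counts of Cma1 (chr14:55941451-55944675) and 1383 of Mcpt4 (chr14:56059629-56062313), both of which encode chymases, and 1566 of Tpsb2 (chr17:25366305-25369098), a tryptase gene. The 4 genes together took 3.66% of the 154941 counts in that well. In every other well the highest count was 4 for Cpa3, 11 for Cma1, 15 for Mcpt4 and 11 for Tpsb2. Well D15 thus held 85.4% of the pool A counts of Mcpt4 and a larger share of those of the other 3 genes.

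Scaled per length, Cma1 stood at 8112 CPM per kb of exon in well D15 and Mcpt4 at 8056. Tpsb2 stood at 6341 and Cpa3 at 5739. These genes had 0.889 to 1.26 counts per exonic base in well D15. The part of a ceiling on counts of abundant genes in these levels was not tested. In the other wells of row D and column 15, the average count ran from 1.51 for Cpa3 to 6.38 for Mcpt4. The same well held other mast cell genes that the choice did not use. Of 20 such genes 15 had 10 or more counts, among them Kit, the stem cell factor receptor, at 3356 CPM and Fcer1a, the alpha chain of the IgE receptor, at 2065 CPM. Il1rl1, the interleukin-33 receptor, stood at 1859 CPM, Hdc, the histamine-forming enzyme, at 1756 CPM and Mrgprb2, a receptor of connective tissue mast cells, at 432 CPM. Fcer1a, Hdc, Il1rl1, Mrgprb1, Mrgprb2, Cd200r3 and Cyp11a1 each reached at most 2 counts in any other well. Mcpt1 and Mcpt2, proteases of mucosal mast cells, and Tpsab1 were at 0 in all 675 wells. Markers of wall cells were low in well D15, with Acta2 at 968 CPM and Myh11 at 90.4 CPM, against medians of 6978 and 4021 CPM in the other pool A wells of its cluster without a set.

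Low counts of the 4 proteases followed the plate position of well D15. All 23 other wells of row D and all 14 other wells of column 15 held mast cell counts, with sums of 10 to 35 per well and a median of 19. No well elsewhere on the plate held a single count, which allows a share of up to 0.912% of them, and no well of pool B did, which allows up to 0.974%. Of the 37 row and column wells 29 held all 4 genes and the other 8 held 3. The average count in these 37 wells was 6.38 ± 2.97 for Mcpt4, 5.92 ± 2.61 for Tpsb2, 4.81 ± 2.00 for Cma1 and 1.51 ± 1.12 for Cpa3 (SD over wells, n = 37), or 0.461%, 0.378%, 0.351% and 0.112% of the count in well D15. The layout of sequencing indices on the plates is unknown here, and the part of index exchange or liquid carry-over in these counts was not tested.

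**Figure D1:**
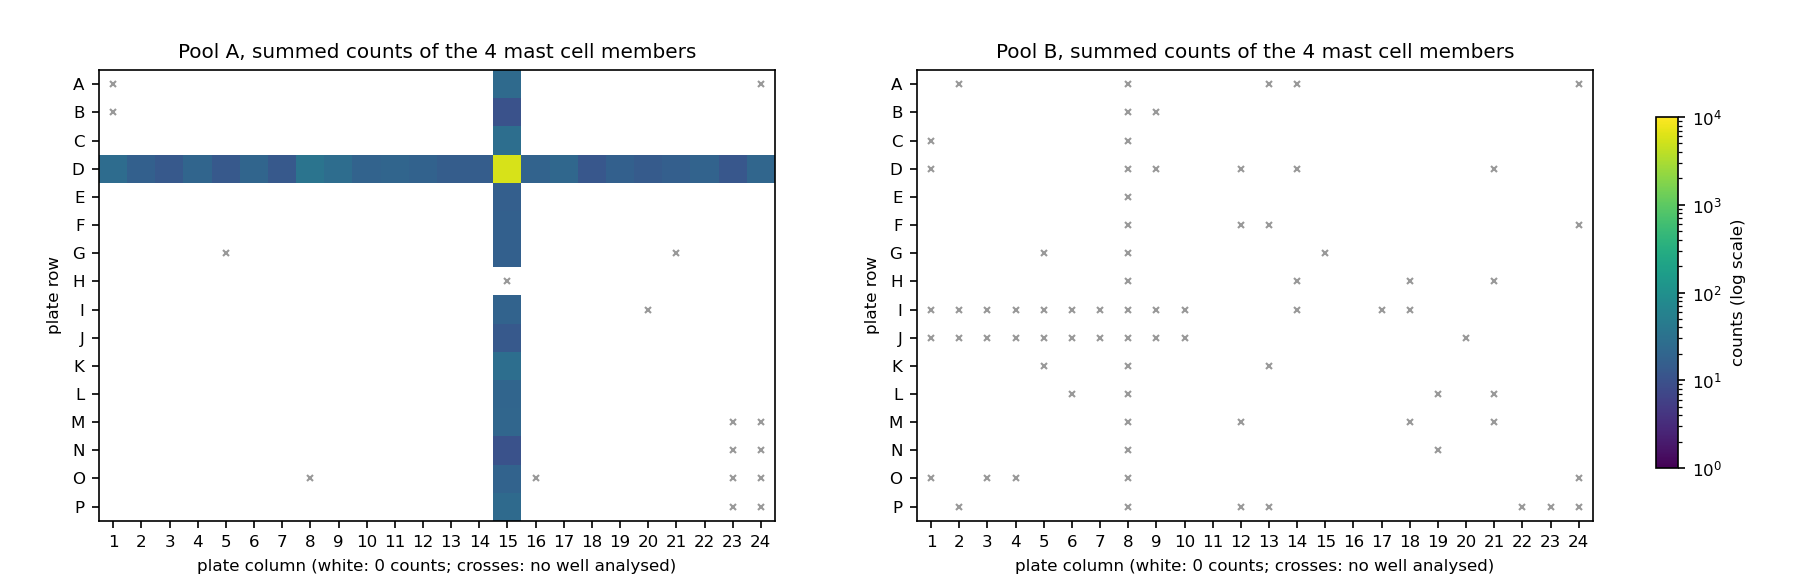
Summed counts of Cpa3, Cma1, Mcpt4 and Tpsb2 in each well of the 384-well plates of pool A (left) and pool B (right), by plate row and column on a logarithmic colour scale; white wells have 0 counts and crosses mark positions with no well analysed. Well D15 is the brightest, the other wells of its row and column hold 10 to 35 counts, and all remaining wells hold 0.

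**Figure D2:**
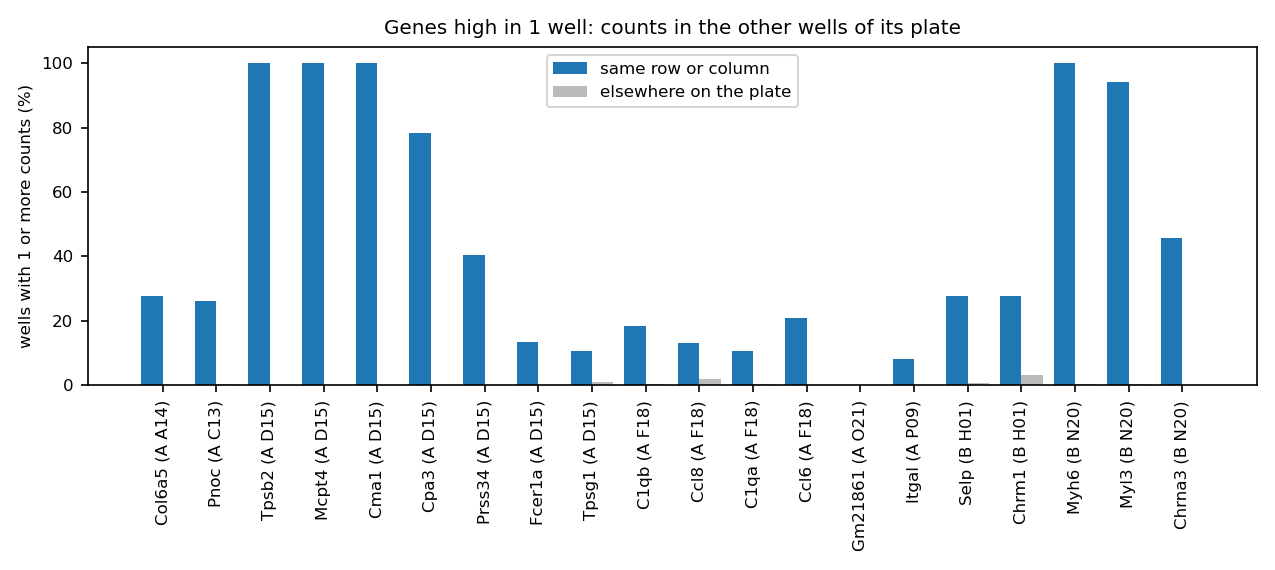
Share of wells with 1 or more counts in the same row or column as the source well (blue) and elsewhere on its plate (grey), for 20 genes with 300 or more counts in 1 well and at most 5% of that in any other, named with pool and source well. The share is higher in the row or column for 19 of the 20, the 4 mast cell members included, and it is 0 in both for Gm21861.

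The threshold of 10 counts cut through these low counts. At 10 or more counts Mcpt4 was present in 7 wells, Tpsb2 in 4, Cma1 in 2 and Cpa3 in 1, and each of those wells lay in row D or column 15. Just inside the threshold, at 10 to 19 counts, lay 6 wells for Mcpt4, 3 for Tpsb2 and 1 for Cma1; just outside, at 5 to 9 counts, lay 22, 23 and 19 wells. A mast cell set, meaning 2 or more of the 4 members at 10 or more counts, was present in 2 wells of pool A (0.545%, exact 95% interval 0.0661 to 1.95%) and in 0 of pool B. The second of the pair, D08, held 11 counts of Cma1 and 12 of Mcpt4, with 7368 CPM of Acta2 and 0 of Kit. Without the other wells of row D and column 15, a choice made after the data were seen, 1 well remained.

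The platelet members were spread over more wells. Pf4 (chr5:90772435-90773383), which encodes the chemokine platelet factor 4, had 10 or more counts in 16 wells of pool A and 1 of pool B. Ppbp (chr5:90768518-90770063), the neighbouring gene for pro-platelet basic protein, passed in 16 and 2 wells. Itga2b (chr11:102453297-102470122), the alpha chain of the fibrinogen receptor, passed in 16 and 5 wells. Gp9 (chr6:87778072-87779768) and Gp5 (chr16:30307685-30310779), subunits of the von Willebrand factor receptor complex, passed in 7 and 4 wells of pool A, and Tubb1 (chr2:174450695-174457882), the platelet beta-tubulin, in 3. No well of pool B held a count of Gp9, Gp5 or Tubb1, which allows up to 0.974% of its wells for each.

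Over whole pools the platelet members averaged 3.29 to 10.4 CPM. Ppbp was at 10.2 ± 13.5 CPM, Itga2b at 10.4 ± 12.1 and Pf4 at 8.18 ± 10.4 (SD, n = 2 pools), so that the spread between pools exceeded each mean. Gp9, Gp5 and Tubb1 were at 5.80 ± 8.20, 4.78 ± 6.76 and 3.29 ± 4.65 CPM. Every platelet member was higher in pool A, so this spread does not measure whether members differ from each other. Without its highest well each member was lower, at 6.31 CPM for Ppbp, 5.83 for Pf4, 4.03 for Itga2b, 3.06 for Gp9, 1.81 for Gp5 and 0.706 for Tubb1. As background, 4247 genes had 10 or more counts in 3 to 25 wells, and a median of 53.3% of those wells lay in pool A; 4.43% of those genes had no such well in pool B.

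Well P09 of pool A held all 6 platelet members and the highest count of each. It held 1294 counts of Itga2b, 793 of Ppbp, 606 of Gp5, 559 of Gp9, 527 of Tubb1 and 480 of Pf4, together 4.13% of 103005 counts. Per length the order was Ppbp, Pf4, Gp9, Tubb1, Gp5 and Itga2b, at 7109, 6463, 6160, 3639, 2678 and 2303 CPM per kb of exon. It had 2702 genes with a count, the fewest of any pool A well. Its share of the pool A counts ran from 30.3% for Pf4 to 78.5% for Tubb1.

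Other genes of platelets and megakaryocytes were also high in well P09. Of 24 such genes 15 had 10 or more counts, among them Alox12, a platelet lipoxygenase, at 6446 CPM, Plek, a substrate of protein kinase C, at 5767 CPM and Gp1bb, a subunit of the von Willebrand factor receptor, at 3864 CPM. Clec1b, the podoplanin receptor, stood at 1417 CPM and Treml1, a granule membrane protein, at 1194 CPM. Another 7 of the 24 were at 0 in well P09, among them Gp1ba, P2ry12, Selp, Bin2 and Nbeal2, and Gp6 had 5 counts. Gata1, also of these 7, was at 0 in all wells. Genes of leukocytes were present too, with 3796 CPM of Itgb2, 3592 CPM of Lyz2 and 3087 CPM of Itgal, while Ptprc and C1qa were at 0. Acta2 stood at 1563 CPM and Pecam1 at 835 CPM, with 5 counts of Dcn and 0 of Cdh5.

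**Figure D3:**
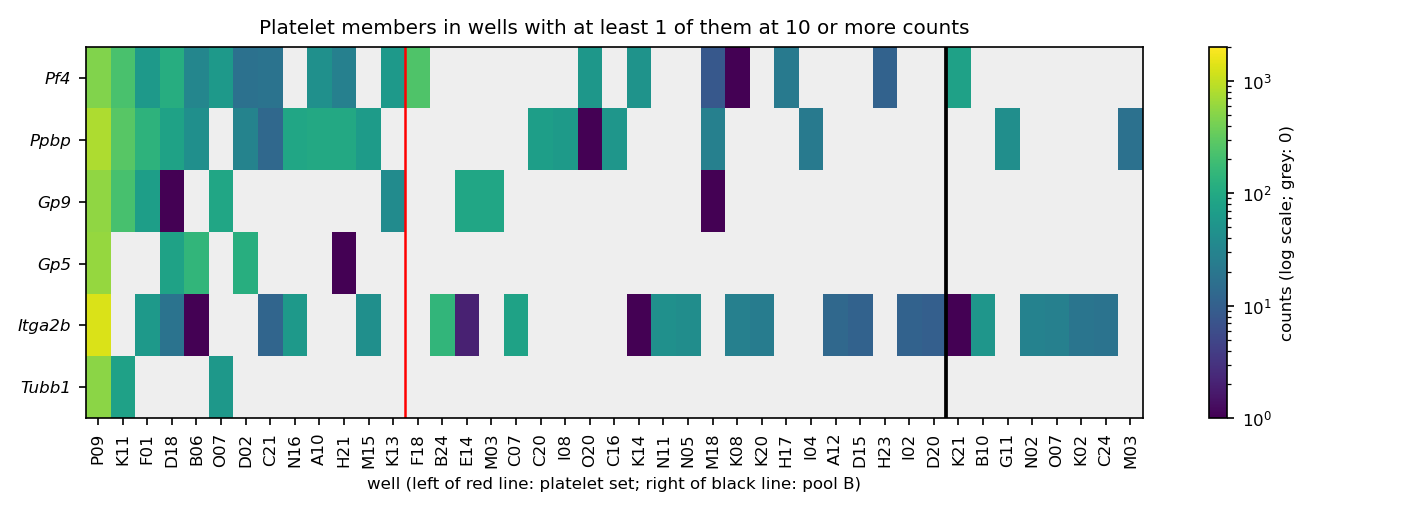
Counts of the 6 platelet members (rows, logarithmic colour scale, grey for 0) in the 43 wells with at least 1 of them at 10 or more counts (columns, named by plate position); wells left of the red line hold a platelet set and wells right of the black line are of pool B. Well P09 holds all 6 members and no pool B well holds more than 1 at 10 counts.

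A platelet set, meaning 2 or more of the 6 members at 10 or more counts, was present in 13 wells of pool A (3.54%, exact 95% interval 1.90 to 5.98%) and in 0 of pool B, which allows up to 0.974%. Beside well P09, 3 wells held 4 members, 4 held 3 and 5 held 2. Well K11 had 850 CPM of Ppbp, 704 of Pf4, 680 of Gp9 and 237.9 of Tubb1. Well O07 had 1731 CPM of Gp9, 1154 of Pf4 and 1096 of Tubb1, from 90, 60 and 57 counts, in the lowest total of its pool at 52000 counts. Another 22 wells of pool A and 8 of pool B held 1 member. Intervals and limits cover counting error only.

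Co-detection differed between members. All 4 wells with Gp5 and all 3 with Tubb1 also held Pf4, and all 4 with Gp5 held Ppbp. Pf4 and Ppbp shared 9 wells, which is 52.9% of the 17 Pf4 wells and 50% of the 18 Ppbp wells. Itga2b was the member most often found alone: of its 21 wells it shared 4 with Pf4 and 6 with Ppbp. Well B24, for example, held 819 CPM of Itga2b and 0 of the other 5, with 7896 CPM of the fibroblast gene Dcn. The same well held 803 CPM of Mpig6b, which stood at 2757 CPM in well P09, and 10 counts of Plek. All 8 wells of pool B with a member held 1 alone: Itga2b at 18 to 55 counts in 5 wells, Ppbp at 43 and 17 counts in 2 and Pf4 at 78 counts in 1. No platelet and mast cell members were found together at 10 counts except Itga2b, which had 11 counts in well D15.

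The wells with a platelet set were found in several clusters of wall cells. In pool A the set was present in 5 of 39 fibroblast-like wells (12.8%, exact 95% interval 4.30 to 27.4%), 2 of 18 endothelial-like wells (11.1%, 1.38 to 34.7%) and 6 Acta2-high wells (1.98%, 0.730 to 4.26%). Fibroblast-like wells were shallower, with a median of 147370 counts in pool A against 292267 in the Acta2-high clusters. In pool B the set was in 0 of 28 fibroblast-like and 0 of 10 endothelial-like wells, which allows up to 10.7% and 30%, and in 0 Acta2-high wells, which allows up to 1.17%. The endothelial-like label does not describe every well of cluster 4. Summed over its pool B wells, Acta2 was at 3015 CPM, Pecam1 at 703 and Cdh5 at 284.6. In pool A these genes were at 2367, 1128 and 987 CPM. Well K21 of pool B, in this cluster, held 1542 counts of Acta2, 2 of Pecam1 and 0 of Cdh5. Of the fibroblast-like wells, M15 held 8905 CPM of Dcn, D02 held 8015, D18 5967, O07 4904 and K13 4754, against a median of 7129 CPM in the 34 others of pool A. The endothelial-like wells C21 and N16 held 3267 and 1638 CPM of Pecam1, the adhesion molecule of endothelium and platelets, and 927 and 1796 CPM of Cdh5, the endothelial cadherin.

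**Figure D4:**
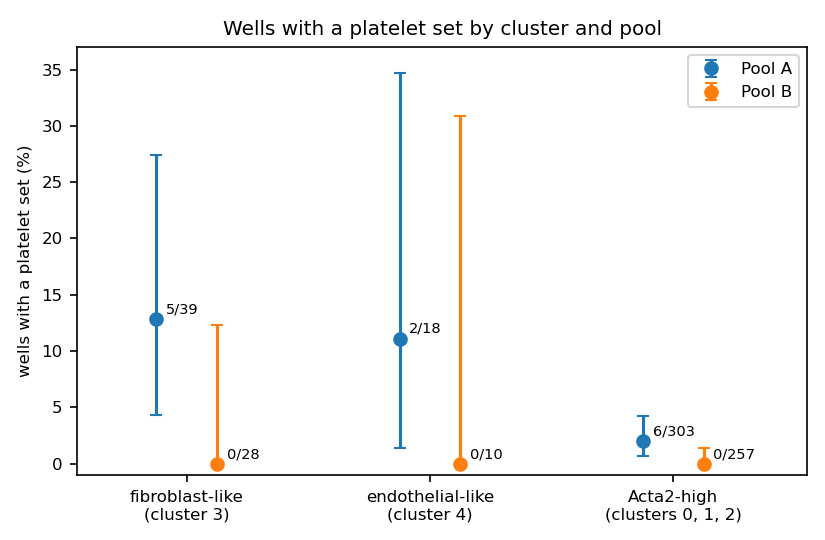
Share of wells with a platelet set (points, with exact 95% binomial intervals, counting error only) in the fibroblast-like, endothelial-like and Acta2-high clusters of pool A (blue) and pool B (orange), with the number of wells beside each point. In pool A the share is 12.8% in fibroblast-like, 11.1% in endothelial-like and 1.98% in Acta2-high wells, and it is 0 in each cluster of pool B. The 6 Acta2-high wells include P09 and B06, which hold little Acta2. The endothelial-like cluster holds more Acta2 than Pecam1 in both pools.

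The 6 Acta2-high wells were unlike each other. A10, F01 and K11 held 6746, 6875 and 5775 CPM of Acta2, beside medians of 7144, 7144 and 6789 CPM in the other pool A wells of their clusters. H21 held 4277 CPM. B06 held 781 CPM of Acta2, together with 900 CPM of Gp5, 262.2 CPM of Ppbp and 196.7 CPM of Pf4. P09 and B06 therefore stood in an Acta2-high cluster with little Acta2, and the cluster label does not describe them. Myh11, the smooth muscle myosin, was at 10 counts in P09 and 9 in B06, and Dcn at 5 and 3. Without these wells, a choice made after the data were seen, the set was present in 4 Acta2-high wells of pool A (1.33%, exact 95% interval 0.363 to 3.37%).

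Of the 24 other platelet genes, 16 had 10 or more counts in a larger share of wells with a platelet set than of the other pool A wells without either set, 3 in a smaller share, and 5 in no well of either group. Without P09 these numbers were 13, 5 and 6. Nrgn, which encodes neurogranin, had 10 or more counts in 7 of 13 set wells (53.8%) and in 6.25% of the others. Alox12 did so in 6 of 13 (46.2%) and 1.42%, Plek in 6 and 4.26%, and Gp1bb in 6 and 27.8%. Clec1b and Rgs18, a regulator of G protein signalling, did so in 4 of 13 (30.8%) and in 0 of the others. Pool B had no platelet set, yet some of these genes reached 10 counts there. Over whole pools Nrgn did so in 29 wells of pool A and 27 of pool B, Alox12 in 11 and 17, and Plek in 22 and 16. For Clec1b these numbers were 4 and 0, and for Rgs18 5 and 0. The Rgs18 wells include D15, at 491 CPM, which holds a mast cell set and so was not among the others. The 3 genes with a smaller share were Itgb3, the partner chain of Itga2b, with 3 of 13 (23.1%) and 40.9%, Rab27b, a granule secretion gene, with 7.69% and 12.2%, and Nbeal2, a gene of alpha-granule formation, with 0 and 3.12%. P2rx1, an ATP receptor gene, was at 15.4% and 14.5%, and without P09 at 8.33% and 14.5%. These shares compare wells picked by their counts and carry no test. Srgn, the granule proteoglycan gene shared by platelets, mast cells and leukocytes, was in 7 of 13 (53.8%) and 4.55%.

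Some red cell and leukocyte genes were also found in these wells. Lyz2, the lysozyme gene of macrophages and other myeloid cells, had 10 or more counts in 5 of 13 set wells (38.5%), or 4 of 12 without P09, and in 0.284% of the others. The other 5 macrophage markers were at 0 in all 13 set wells. Hba-a1 had 10 or more counts in 3 of 13 set wells and 0 of the others, and Hbb-bs in 1 of 13 and 4.83%; the 2 alpha globin copies share 67.5% of their 50-base windows, so their counts are uncertain. Summed over 7 red cell genes, the set wells had 0 to 738 CPM with a median of 27.4, against 0 to 240 CPM and a median of 0 in the others. Laptm5 and Fcer1g, expressed by leukocytes, were each in 2 of the 13, and in 0.284% and 0.852% of the others. The 5 granulocyte genes were at 0 in all 13 set wells. The part of red cell or leukocyte RNA in the platelet counts was not tested.

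The set wells lay over 11 of 16 rows and 12 of 24 columns. An adjacent well with a platelet member was present for 5 of 13 set wells (38.5%) and for 54.8% of the other wells of pool A. Their median depth was 219214 counts, against 280946 in those others.

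Low platelet counts also gathered around well P09. Of the other 36 wells in row P or column 9, 30 (83.3%) held 1 to 9 counts of some platelet member, against 22.7% of the wells elsewhere on the plate and 4.55% of pool B wells. None of these 36 wells reached 10 counts of any platelet member, so the wells with a platelet set other than P09 lay outside its row and column. The platelet counts there were at most 3. The average per gene was 0.0279% of the count in P09 for Itga2b to 0.0984% for Pf4, below the rates of the 4 mast cell proteases.

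**Figure D5:**
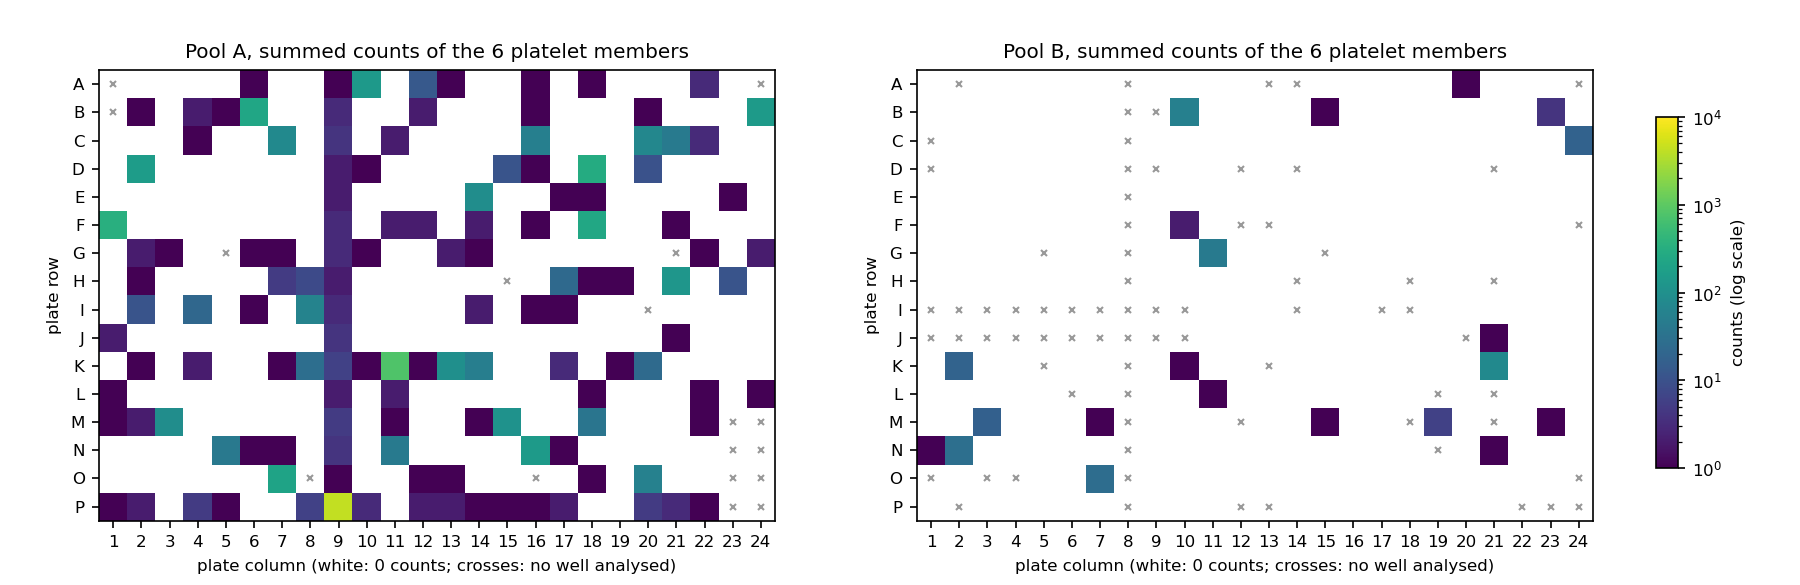
Summed counts of the 6 platelet members in each well of the plates of pool A (left) and pool B (right), by plate row and column on a logarithmic colour scale; white wells have 0 counts and crosses mark positions with no well analysed. Well P09 is the brightest, low counts line its row and column, and the other wells with 10 or more counts are scattered over the pool A plate.

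One macrophage-marker well carried Pf4 alone. Well F18 of pool A held 2985 CPM of Pf4, from the second highest count, and 0 of Ppbp, Gp9, Gp5, Itga2b and Tubb1. It held 5374 CPM of C1qb and 3881 CPM of C1qa, complement genes of macrophages, and 5218 CPM of Lyz2. Of the 24 other platelet genes 22 were at 0 there. Pf4 is known to be expressed by some macrophages as well as by megakaryocytes.

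The genes most like the mean of the platelet members over all 675 wells, by Pearson r of log2(CPM + 1), were Rgs18 (r = 0.64), Clec1b (0.62), Lyz2 (0.62), Itgb2 (0.61) and Mctp1 (0.60). Slc6a4, the serotonin transporter, followed at 0.51, then Mbp at 0.50, Ctla2a at 0.48, Cd226 at 0.45 and Laptm5 at 0.44. Wells share plates, mice and depth, and single wells weigh heavily: without wells P09 and D15, chosen after the data were seen, Rgs18 was at 0.52, Lyz2 at 0.50, Ctla2a at 0.45, Clec1b at 0.43 and Itgb2 at 0.36, while the other 5 were no longer in enough wells to be ranked. For the mast cell members Laptm5 came first (r = 0.35), followed by Fcer1g (0.34) and Chst1 (0.32), then Gm10392, Krt1, Rgs18, Gcnt1, Basp1, Pstpip2 and Slc6a4 at 0.30 to 0.28. Without P09 and D15, Fcer1g was at 0.18, Rgs18 at 0.14, Chst1 at 0.13, Basp1 and Gcnt1 at 0.10 and Pstpip2 at 0.03, and the other 4 could not be ranked. Genes confined to well D15 could not enter this list, which took genes with 10 or more counts in at least 3 wells.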

How the data were processed

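Single cells with the tissue label aorta were measured by Smart-seq2. The authors deposited raw counts for 46517 gene identifiers in 675 wells. Subread, featureCounts, Bowtie2, Bowtie and bcl2fastq appear in the submitters' processing notes, without versions, with GRCm38 (mm10) as genome; removal of duplicates is not stated there. Symbols, coordinates and exon lengths came from GENCODE M21 of GRCm38; 512 of the identifiers had no symbol and took 0.217% of all counts. Per the labels, wells were grouped by plate and pool of mice. No column lay outside the labelled wells.

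The members and lists were chosen with earlier results of these data known, so no test was run. CPM is the count scaled to the total of a well or pool. A member was taken as detected at 10 or more counts. Shares have exact Clopper-Pearson 95% intervals, and a count of 0 allows 3 wells; both cover counting error only, since amplified reads are not separate molecules. Wells were clustered with scanpy 1.11.5 and leidenalg 0.10.2 (2000 variable genes, 20 components, 15 neighbours, resolution 0.5, seed 0) without the members and related lists. Markers named a cluster, with 3 markers at 100 CPM needed. No doublet caller was run. Genes were ranked by Pearson r of log2(CPM + 1). The named genes are the members, the 10 most alike for each set and up to 8 of each other list by the number of set wells; those named for wells P09, D15, F18, B06 and B24 alone were chosen after their values were seen. The ranking was tested on simulated data in which the members had counts in most wells. That test does not show how the ranking behaves for genes found in few wells, as here. Python 3.11.15, numpy 2.4.6, pandas 2.3.3 and scipy 1.17.1 were used. Alternatives were other thresholds, set sizes, depths, clusterings and likeness measures, and each pool left out.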

Additional observations from a re-analysis of the deposited data

How the results depend on the processing

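The platelet set was in 13 wells; 4 other settings gave 12 to 14 wells (5 counts, 20 counts, 50 CPM, and wells under 100000 counts left out), and thinning to 20000 counts with a threshold of 1 count gave 15. A threshold of 1 count gave 51 wells, 1 or more members 43 and 3 or more members 8. Without the other wells of row D and column 15, added after the data were seen, it was 10. As a share of all wells it was 1.93%, and leaving out each pool in turn gave 0 to 3.54%.

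The mast cell set was in 2 wells. It was in 38 at 1 count, 29 at 5 counts, 1 at 20 counts, 4 at 50 CPM and 16 after thinning, in 10 with 1 or more members and 1 with 3 or more, and in 1 without the other wells of row D and column 15. As a share of all wells it was 0.296%, and leaving out each pool gave 0 to 0.545%. The added wells at low thresholds all hold counts of the row and column of well D15.

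All 15 platelet pairs share well P09, so this number cannot change with the threshold while P09 is kept. Without P09, left out only once its counts were known, 12 pairs shared a well at 10 counts and 11 to 15 at the other thresholds. In all 5 clusterings 5 set wells were fibroblast-like. At resolution 1.0 the share of Acta2-high pool A wells with a platelet set was 1.06%, from 3 wells, against 1.98% from 6; the other 3 went to a cluster of 44 wells with D15, P09 and F18 that took the name mast cell-like, although well D15 holds most of those counts. Of the 10 genes most like the platelet members, Spearman rho kept 5 and leaving out P09 and D15 kept 5; for the mast cell members these settings kept 5 and 1. Per member, 29 of 50 alternative well counts were within 1.5 times the main count, and 19 of 20 shares of wells moved when a pool was left out. Without the highest well, 9 of 10 member levels were lower by more than 1.5 times, Cpa3 at 0.275 CPM against 6.88. No paired analysis was possible because no result comes from a test. Counts near 10 are limited by depth and by the row and column counts.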

Other observations

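Plate position mattered for other genes that were high in 1 well. With a rule chosen after the data were seen (300 or more counts in 1 well and at most 5% of that in any other), 20 genes in 8 wells were found, the 4 mast cell members among them. Of their counts in other wells of the same plate, 978 lay in the row or column of the high well and 100 elsewhere. Counts were present in 43.4% of 717 pairs of gene and row or column well and in 25 of 6308 pairs elsewhere (0.396%). Most of the row and column counts came from the mast cell members, whose pattern prompted the rule. Without these 4 genes 74.3% of the counts lay in the row or column, in 30.1% of 569 pairs there against 0.501% of 4992 elsewhere. Without the genes of well N20 too, 51% of the counts did, in 18.8% of 464 pairs there against 0.551% of 4176 elsewhere. The share was higher in the row or column for 19 of the 20 genes, on both plates. Well N20 of pool B held 1856 counts of Myh6, the cardiac myosin gene, and all 35 other wells of its row and column held Myh6 counts, against 0.368% of wells elsewhere on the plate. The exception was Gm21861, with 4096 counts in well O21 of pool A, the highest value in the table, and 0 in every other well.

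The count in row and column wells as a percent of the source was not the same for all genes. It averaged 0.461% for Mcpt4 and 0.351% for Cma1, whose source wells held 1.25 and 1.26 counts per exonic base, and 0.0698% for Prss34, a further mast cell protease in well D15, at 0.634 counts per base. For Myl3 in well N20 it was 0.267% at 0.419 counts per base. The part of a ceiling on counts of abundant genes in these percentages was not tested.

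Well K01 of pool B held 2168 CPM of Hbb-bs, a beta globin gene, and 1786 CPM of Alas2, the haem synthesis enzyme of red cells, with 617 CPM of P2ry12, the platelet ADP receptor, and none of the 6 platelet members at 10 counts.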
